A study of Mus musculus with 4 samples.

Results

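Wnt proteins are secreted, lipid-modified signals that Frizzled receptors bind together with Lrp5 or Lrp6. Binding stops the destruction complex from degrading beta-catenin, which then enters the nucleus and switches on target genes with TCF and LEF factors. Several of those targets, Axin2, Nkd1 and Notum among them, dampen the pathway in a feedback loop. In the brain, Wnt7a and Wnt7b are made by neuroepithelial cells, radial glia and oligodendrocyte precursors, and they act on endothelial cells through Reck and Adgra2 to guide blood vessel growth and the blood-brain barrier.

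The 10 genes described here are Wnt7a, Wnt7b, Wnt5a, Dkk3, Nkd1, Axin2, Lef1, Notum, Reck and Fzd1, found by symbol among the 35857 genes of each table. They were selected on the Qk_KO against control fold changes and TPM of these same 4 libraries. Their values, and the calls they received in the fit over all genes, are therefore a description of the selection, are given without p-values, and support nothing beyond themselves. RNA came from cultured mouse cells, strain C57BL/6, that were grown from embryonic cerebral cortex as neural stem cells and were taken 24 hr into induced differentiation to glia. The 2 Qk_KO libraries carry the genotype Qk-/-, loss of the gene that encodes Quaking, an RNA-binding protein, and the 2 control libraries are labelled wild type. The labels do not say how the allele was made, how many animals were used or whether replicates were separate cultures.

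Abundance was given as TPM, a transcript share scaled to a fixed library total, which is corrected for transcript length. Qk itself was at 36.1 and 43.7 TPM in the Qk_KO libraries, against 208 and 215 TPM in the control libraries. The 12 neural stem cell and radial glia markers were all above a mean of 1 TPM, led by Fabp7 and Vim, with sums of 6698 to 6869 TPM in Qk_KO and 6657 to 6807 TPM in control libraries. Fabp7 and Vim made up most of these sums, and members moved both ways, with 1 called higher and 2 lower by limma. Pax6 had 48.9 and 45.8 TPM in Qk_KO libraries, against 24.0 and 17.9 TPM in control libraries (adjusted p = 0.0423). Slc1a3 had 117 and 150.0 TPM in Qk_KO libraries, against 338 and 435 TPM in control libraries (adjusted p = 0.0324), and Ptprz1 had 161 and 153 TPM in Qk_KO libraries, against 228 and 260.1 TPM in control libraries (adjusted p = 0.0461). What part these radial glia genes had in the Wnt values was not tested. Qk_KO replicate 1 stood apart in sex-linked genes, with Eif2s3y at 35.4 TPM and Xist at 0.04 TPM. In the other 3 libraries Eif2s3y was listed at 0 and Xist was at 57.6 to 62.5 TPM. By these genes the Qk_KO libraries were of unlike sex, while the control libraries were alike. What part sex had in the Wnt values was not tested.

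Quaking binds RNA at the letters ACUAAC or ACUAAU, written here with T. These letters were searched on the transcript strand in the longest annotated 3' UTR of each gene, which all 10 genes had. They were found in Wnt7b, Wnt5a and Nkd1, 1 match each, that is in 3 of 10 genes, where 35.2% of the 12269 tested genes with a 3' UTR held a match. The form ACTAAC was found in Wnt7b alone of the 10, and in 20.0% of the tested genes. The Wnt7b match began at base 425 of a 3' UTR of 1952 bases, the Wnt5a match at base 2197 of 4508 and the Nkd1 match at base 110 of 2732. The median 3' UTR of tested genes had 1258 bases. The windows of these 3 matches are shown, with the matched letters in capitals. Wnt7b was lower in Qk_KO and Nkd1 was higher, and whether a match bears on the level was not tested.
Wnt7b (chromosome 15): gaggactcagtACTAACgactgggtagc
Wnt5a (chromosome 14): tgaaaaaaagcACTAATttagtttaaaa
Nkd1 (chromosome 8): attgttactccACTAATatttagccagc
A match is a string of letters and not a binding site, and its absence in the other 7 genes says nothing of Quaking binding elsewhere in their transcripts.

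Promoter windows, 250 bases before to 50 bases after a start site, were given for 6 of the genes, Wnt7a, Nkd1, Axin2, Lef1, Reck and Fzd1. TCF and LEF factors can bind the letters CTTTGAA or, as the next form searched, CTTTGAT. These forms were searched on both strands together with CTTTGTA and, as the last form, CTTTGTT. They were found in 2 of 9 windows of these genes, and in 16.9% of 32851 windows of all genes. Lef1 alone gave 4 of the 9 windows. By gene, a match was found in 2 of 6, where 18.9% of 27025 genes and 13.2% of 10411 tested genes held 1 or more. With so few genes, nothing is read from these shares. The matches were CTTTGTT in Reck and CTTTGTA in 1 of 4 Lef1 windows, both on the opposite strand. That Lef1 window, which begins at 131156044, lies inside the gene, whose annotated start is 131110471. The Nkd1 window also lies inside its gene, past the annotated start at 88521354, and no window at that start was given. The windows of Wnt7a and Nkd1 are shown as those of genes that were higher in Qk_KO together, and that of Reck for its match, in capitals.
Wnt7a (GRCm38.p6, chr6:91411304-91411603, minus strand): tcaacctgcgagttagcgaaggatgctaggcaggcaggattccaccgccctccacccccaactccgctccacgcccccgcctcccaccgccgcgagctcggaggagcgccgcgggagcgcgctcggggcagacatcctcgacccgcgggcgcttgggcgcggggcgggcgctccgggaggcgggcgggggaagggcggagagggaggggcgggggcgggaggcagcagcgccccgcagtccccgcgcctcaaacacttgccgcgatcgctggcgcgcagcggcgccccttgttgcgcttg
Nkd1 (GRCm38.p6, chr8:88527383-88527682, plus strand): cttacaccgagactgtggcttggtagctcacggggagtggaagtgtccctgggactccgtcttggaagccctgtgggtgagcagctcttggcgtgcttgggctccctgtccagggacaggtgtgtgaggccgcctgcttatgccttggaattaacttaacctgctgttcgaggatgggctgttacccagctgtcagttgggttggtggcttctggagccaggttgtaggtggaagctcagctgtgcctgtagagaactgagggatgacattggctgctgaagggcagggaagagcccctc
Reck (GRCm38.p6, chr4:43875280-43875579, plus strand): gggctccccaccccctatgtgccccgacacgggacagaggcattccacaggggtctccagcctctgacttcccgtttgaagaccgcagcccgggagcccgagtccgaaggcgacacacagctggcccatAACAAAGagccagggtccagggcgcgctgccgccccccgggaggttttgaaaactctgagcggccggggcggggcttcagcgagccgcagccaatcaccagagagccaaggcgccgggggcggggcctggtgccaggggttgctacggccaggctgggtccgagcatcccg
No match says only that these letters are not in this window.

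Wnt7a and Wnt7b, closely related ligands, lay in opposite directions. Wnt7a had 113 and 94.0 TPM in the Qk_KO libraries (replicates 1 and 2), against 36.3 and 27.4 TPM in control replicates 1 and 2. Both Qk_KO libraries stood far above both controls, and Wnt7a (Entrez gene 22421, chromosome 6, 91363981 to 91411363, minus strand, GRCm38) was the most abundant Wnt gene in all 4 libraries. Its mean was 104 ± 13.6 TPM in Qk_KO and 31.8 ± 6.31 TPM in control (SD, n = 2 each), a ratio of 3.26 and a log2 fold change of 1.68 (SE 0.17) on the log2(TPM + 1) scale.

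Wnt7b was at 10.8 and 8.51 TPM in the Qk_KO libraries, against 27.2 and 25.2 TPM in the control libraries. Here both Qk_KO values were low and the groups did not overlap. Means were 9.67 ± 1.64 TPM in Qk_KO and 26.2 ± 1.41 TPM in control (SD, n = 2 each), a ratio of 0.368 and a log2 fold change of -1.36 (SE 0.15). The gene (Entrez gene 22422) lies on chromosome 15 at 85535437 to 85582473, minus strand, so the pair do not share a locus.

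The balance between the pair differed between the groups by far more than between replicates. Wnt7a made up 91.3% and 91.7% of the summed Wnt7a and Wnt7b TPM in the Qk_KO libraries, against 57.1% and 52.0% in the control libraries. This share is a ratio within a library and does not depend on scaling between libraries. The difference of the means was 36.9 percentage points, and 34.4 to 39.5 points with any 1 library left out. Both genes were chosen with this comparison known, so the difference is a description of that choice. The sum of both genes was 124 and 103 TPM in Qk_KO libraries, against 63.5 and 52.6 TPM in control libraries, so the sum was also higher in Qk_KO.

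Wnt5a, a ligand known for signalling without beta-catenin, was at 18.5 and 15.1 TPM in the Qk_KO libraries, against 12.2 and 15.1 TPM in the control libraries. Its lower Qk_KO value and its higher control value were almost equal, and the log2 fold change was 0.28 (SE 0.17). It was 0.14 without control replicate 1 or without Qk_KO replicate 1, 0.42 without either of the other 2 libraries, and 0.18 with the GC trend removed. Its close relative Wnt5b was at 29.8 and 28.4 TPM in Qk_KO libraries, against 22.2 and 22.4 TPM in control libraries.

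Over all 19 Wnt genes, summed abundance was 179 and 152 TPM in Qk_KO libraries, against 105 and 99.0 TPM in control libraries. Wnt7a, Wnt7b, Wnt5a and Wnt5b made up most of it in every library. Wnt7a took 62.6 ± 1.10% of the sum in Qk_KO and 31.0 ± 4.78% in control, and Wnt7b took 5.83 ± 0.331% in Qk_KO and 25.7 ± 0.225% in control (SD, n = 2 each). The shares of Wnt5a were 10.1 ± 0.306% in Qk_KO and 13.4 ± 2.54% in control libraries. Wnt3a and Wnt8a were listed at 0 in all 4 libraries.

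**Figure D1:**
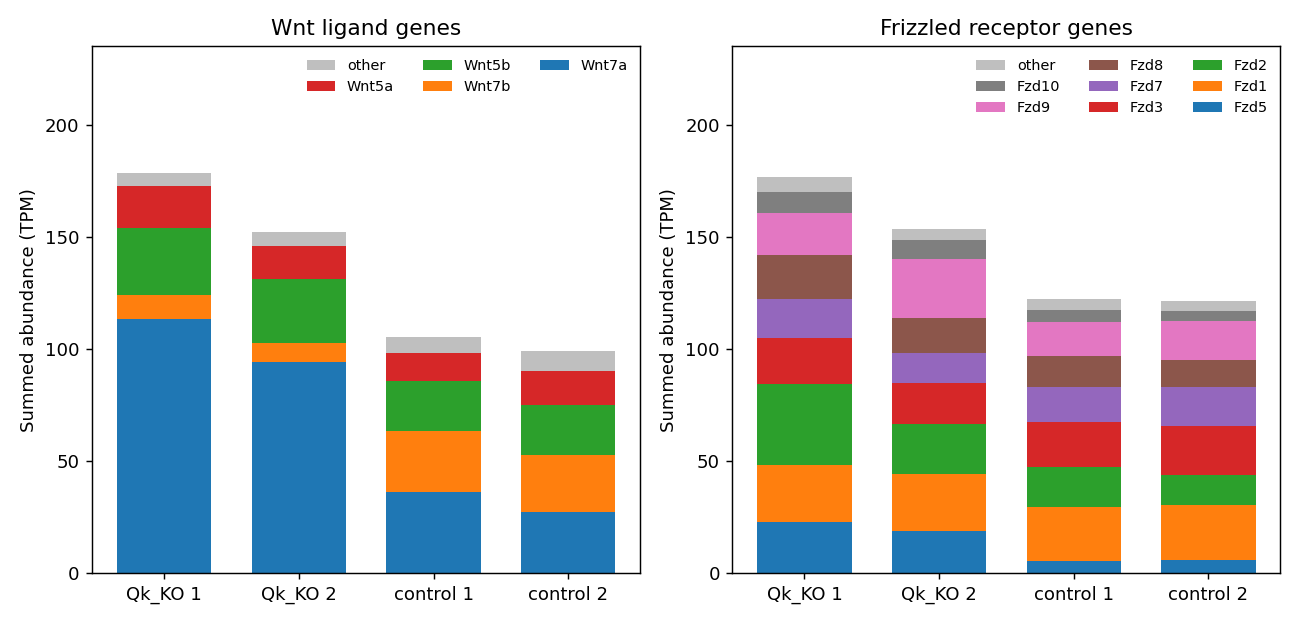
Stacked TPM of the 19 Wnt genes (left) and the 10 Frizzled genes (right) in Qk_KO replicates 1 and 2 and control replicates 1 and 2, with each bar 1 library and each colour 1 gene. The Wnt7a block is 113 and 94.0 TPM tall in Qk_KO and 36.3 and 27.4 TPM in control, while the Wnt7b block is thinner in Qk_KO, and the Fzd5 block is 22.9 and 18.8 TPM in Qk_KO and 5.50 and 5.83 TPM in control.

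Among the receptors, Fzd1 hardly differed between libraries. It was at 25.5 and 25.3 TPM in Qk_KO libraries, against 24.3 and 24.9 TPM in control libraries, a log2 fold change of 0.05 (SE 0.11). The 2 groups lay apart only by 0.03 on the log2(TPM + 1) scale, and the sign turned to a log2 fold change of -0.10 with the trend on GC content removed. The 10 Frizzled genes summed to 177 and 154 TPM in Qk_KO libraries, against 122 and 121 TPM in control libraries, and Fzd1 was 15.5 ± 1.45% of summed Frizzled TPM in Qk_KO and 20.2 ± 0.441% in control (SD, n = 2 each).

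Reck is a membrane-anchored protein that lets Wnt7a and Wnt7b, but not other Wnt proteins, signal through Frizzled and Adgra2. It was at 7.78 and 6.08 TPM in Qk_KO libraries, against 6.13 and 4.07 TPM in control libraries. The groups overlapped, and the log2 fold change was 0.39 (SE 0.23). Without control replicate 1 it was 0.64, without control replicate 2 it was 0.15, without Qk_KO replicate 1 it was 0.24, and with quantile normalization it was 0.26. Its partner Adgra2, listed with the receptors, was at 3.39 and 3.56 TPM in Qk_KO libraries, against 4.30 and 3.10 TPM in control libraries, also overlapping.

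The inhibitors and feedback genes differed among themselves in direction. Dkk3 (Entrez gene 50781, chromosome 7, 112116017 to 112159057, minus strand) is a divergent member of the Dickkopf family of secreted proteins. It was at 10.7 and 9.58 TPM in Qk_KO libraries, against 3.33 and 4.0 TPM in control libraries. Qk_KO values lay above both controls with little spread inside either group, a ratio of means of 2.77 and a log2 fold change of 1.26 (SE 0.17). Dkk1, the Dickkopf protein that blocks Lrp6, stayed at or below 0.50 TPM in all 4 libraries, and Dkk4 was listed at 0.

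Nkd1 (Entrez gene 93960, chromosome 8, 88521354 to 88594884, plus strand), an intracellular protein that binds Dishevelled, was at 41.8 and 47.6 TPM in Qk_KO libraries, against 22.3 and 17.7 TPM in control libraries. The groups were well apart, and the ratio of means was 2.24, with a log2 fold change of 1.13 (SE 0.15). Axin2 (Entrez gene 12006, chromosome 11, 108920349 to 108950783, plus strand) is a scaffold of the destruction complex and a widely used readout of beta-catenin signalling. It was at 13.9 and 17.1 TPM in Qk_KO libraries, against 9.25 and 7.03 TPM in control libraries. Axin2 was higher in both Qk_KO libraries, with a ratio of 1.90 and a log2 fold change of 0.86 (SE 0.19), but was not called by limma.

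Notum, the secreted enzyme that strips the lipid from Wnt proteins, ran the other way from Nkd1 and Axin2. It was at 0.22 and 1.13 TPM in Qk_KO libraries, against 2.19 and 1.43 TPM in control libraries, a log2 fold change of -0.79 (SE 0.35). That value was -0.39 without Qk_KO replicate 1, -1.19 without Qk_KO replicate 2 and -1.58 with a pseudocount of 0.1. Without control replicate 1 the mean of Notum was below 1 TPM, so it was not tested there. These levels are low, and the Qk_KO replicates differed from each other more than the nearest Qk_KO and control values did. Lef1, a transcription factor that is both effector and target of the pathway, was at 0.34 and 0.71 TPM in Qk_KO libraries, against 0.60 and 0.52 TPM in control libraries. Its groups overlapped, and it was not tested because its mean was below 1 TPM.

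**Figure D2:**
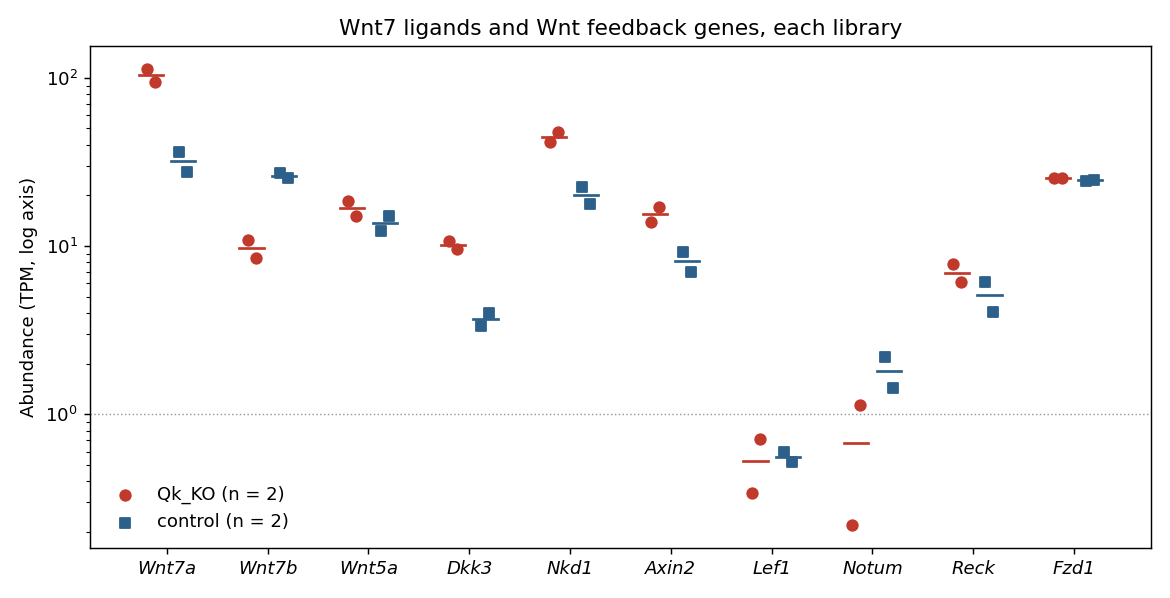
TPM of the 10 genes on a log axis, with each point 1 library, horizontal bars the group mean (n = 2 each) and the dotted line at 1 TPM, the lowest mean tested. Wnt7a, Dkk3, Nkd1 and Axin2 are higher in Qk_KO and Wnt7b and Notum are lower, while Fzd1 sits between 24.3 and 25.5 TPM in every library.

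In order of level, Qk_KO libraries had Wnt7a at the top at 104 ± 13.6 TPM, then Nkd1 at 44.7 ± 4.12 and Fzd1 at 25.4 ± 0.128 TPM (SD, n = 2). Wnt5a at 16.8 ± 2.41 and Axin2 at 15.5 ± 2.33 TPM followed and differed by less than their SD, as did Dkk3 at 10.1 ± 0.785 and Wnt7b at 9.67 ± 1.64 TPM. Reck came next at 6.93 ± 1.20 TPM, and Notum at 0.675 ± 0.644 and Lef1 at 0.525 ± 0.262 TPM could not be ordered. In control libraries the order was Wnt7a, Wnt7b, Fzd1, Nkd1, Wnt5a, Axin2, Reck, Dkk3, Notum and Lef1. There, Wnt7a at 31.8 ± 6.31 and Wnt7b at 26.2 ± 1.41 TPM differed by less than the larger SD, and so did Reck at 5.10 ± 1.46 and Dkk3 at 3.66 ± 0.474 TPM. Wnt7b was second of the 10 in control libraries and level with Dkk3 in Qk_KO libraries.

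Of the 10 genes, 9 had a mean of at least 1 TPM. Among them, 3 were called higher (Wnt7a, Dkk3 and Nkd1) and 1 lower (Wnt7b) by limma at an adjusted p of 0.05, and 5 were not called, where 3.24% of the 13260 genes tested were called, 1.83% higher and 1.42% lower in Qk_KO. Because the genes were chosen with this comparison known, nothing is read from that count. Values of the groups did not overlap for 8 of the 9, 6 with Qk_KO above and 2 with Qk_KO below, where 61.1% of all genes tested did not overlap, 33.6% above and 27.5% below. With either control library left out none of the 4 was called, without Qk_KO replicate 1 Wnt7b was called, and without Qk_KO replicate 2 Wnt7a was called. The log2 fold changes with 1 library left out ran from 1.48 to 1.88 for Wnt7a, from -1.52 to -1.20 for Wnt7b, from 1.15 to 1.36 for Dkk3 and from 0.97 to 1.29 for Nkd1.

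**Figure D3:**
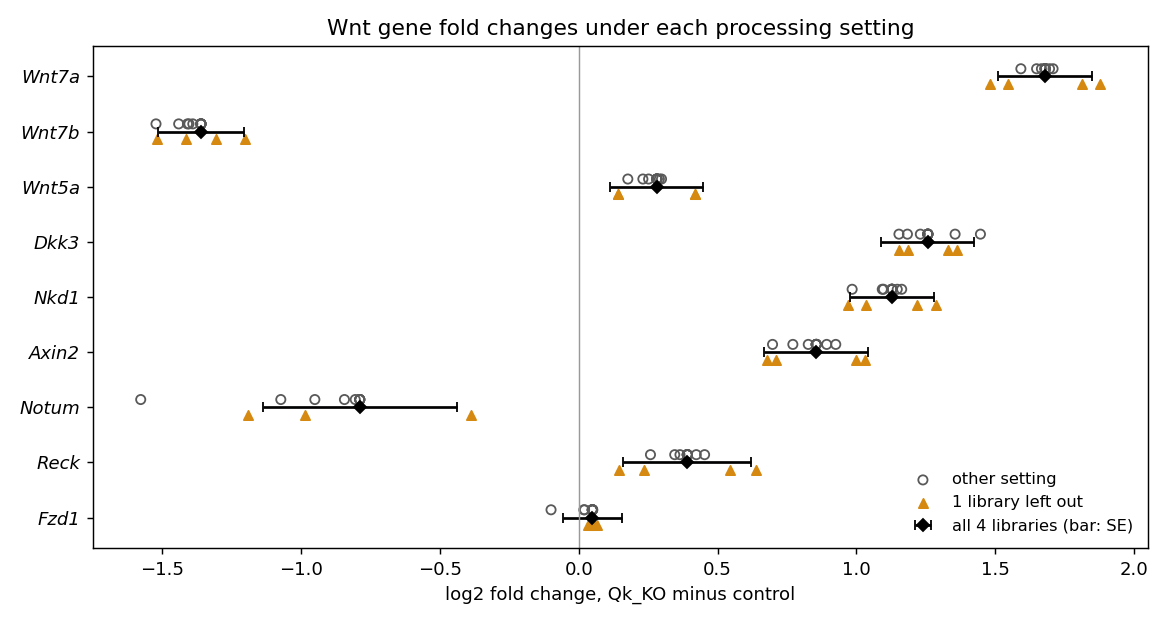
log2 fold change, Qk_KO minus control, of the 9 genes tested, with the fit to all 4 libraries (diamond, bar its SE), fits with 1 library left out (triangles) and the other settings (circles). Wnt7a stays between 1.48 and 1.88 and Wnt7b between -1.52 and -1.20, and of the 9 genes Fzd1 has values on both sides of 0.

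The rest of the pathway was taken as 115 further genes in 7 roles, listed by what they do. This list was also drawn up with earlier results of these data known. Its counts, medians and adjusted p-values are therefore given as a description. Of these, 82 were tested, and 3 rose, 1 fell and 78 did not pass, so 4.88% were called, against 3.24% of all genes tested. Groups did not overlap for 46 of the 82, or 56.1%, against 61.1% of all genes. The median log2 fold change was 0.14, against 0.04 over all genes tested. With the GC trend removed these medians were 0.07 and -0.01, and with no low-value filter they were 0.07 and 0.01.

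Among the 15 receptor genes tested 1 rose, while 0 fell and 14 missed the threshold. Fzd5, a Frizzled receptor, was at 22.9 and 18.8 TPM in Qk_KO libraries, against 5.50 and 5.83 TPM in control libraries. Its log2 fold change in limma was 1.71 with an SE of 0.15 (Benjamini-Hochberg adjusted p = 0.0220), a ratio of means of 3.68 that was higher in both Qk_KO libraries. Its share of Frizzled TPM was 12.6 ± 0.516% in Qk_KO and 4.65 ± 0.216% in control. Its adjusted p by limma ran from 0.0148 to 0.173 over 15 alternatives. The call was lost without control replicate 1, control replicate 2 or Qk_KO replicate 1, where its log2 fold change lay between 1.57 and 1.74, and with no filter on low values. The most abundant receptor genes, Ptk7 and Ryk, were at 89.7 and 87.8 TPM and at 58.3 and 59.9 TPM in Qk_KO libraries, against 84.8 and 91.8 TPM and 56.9 and 67.4 TPM in control libraries.

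The 10 planar polarity genes tested held 1 that rose, 0 that fell and 9 that did not pass, with a median log2 fold change of 0.52. Celsr1, an atypical cadherin of planar cell polarity, was at 52.7 and 40.1 TPM in Qk_KO libraries, against 11 and 9.29 TPM in control libraries. In limma its log2 fold change was 2.08 with an SE of 0.17 (Benjamini-Hochberg adjusted p = 0.0210), a ratio of 4.57, and its adjusted p by limma ran from 0.00636 to 0.160 over 15 alternatives. With no low-value filter, or without either control library, the call was lost, and log2 fold changes with 1 library left out were 1.89 to 2.27. Its relative Celsr3, named after its values were seen, was at 39.3 and 43.8 TPM in Qk_KO libraries, against 16.7 and 8.16 TPM in control libraries, and just missed the threshold (limma, adjusted p = 0.0507). The role's most abundant genes were Vangl2, at 86.4 and 82.8 TPM in Qk_KO libraries against 83.6 and 72.2 TPM in control libraries, and Daam2. Daam2 was at 96.4 and 46.05 TPM in Qk_KO libraries, against 40.9 and 35.1 TPM in control libraries, so that replicate 1 was high. It did not pass with all 4 libraries, and it did with Qk_KO replicate 2 left out (limma, log2 fold change 1.33 and adjusted p = 0.0488). In that fit the high library stands alone for Qk_KO, and only the controls give the spread.

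Nuclear factors gave 1 gene that rose, 0 that fell and 12 that did not pass, of 13 tested. Tle3, a corepressor that binds TCF and LEF factors, was at 183 and 178 TPM in Qk_KO libraries, against 117 and 100.4 TPM in control libraries. That is 0.73 on the log2 scale with an SE of 0.11 (limma, adjusted p = 0.0426), and its adjusted p by limma ran from 0.0263 to 0.244 over 15 alternatives. The call was lost with no filter on low values, with no mean-variance trend and with any 1 library left out, at log2 fold changes of 0.63 to 0.84. Cby1, which binds beta-catenin, was at 92.2 and 103 TPM in Qk_KO libraries, against 102 and 85.7 TPM in control libraries.

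Feedback and target genes gave 0 that rose, 1 that fell and 11 that did not pass, of 12 tested. Ccnd1, the G1 cyclin, was at 29.6 and 36.3 TPM in Qk_KO libraries, against 66.1 and 80.5 TPM in control libraries, and fell by 1.13 on the log2 scale (SE 0.15, limma, adjusted p = 0.0404). Its adjusted p by limma ran from 0.0158 to 0.241 over 15 alternatives, and the call was lost with no filter, with no mean-variance trend and with any 1 library left out, at log2 fold changes of -1.27 to -0.99. Ccnd1 was lower in the libraries where Nkd1 was higher. The most abundant genes of the role were Id2 and Tcf4. Id2 was at 719 and 647 TPM in Qk_KO libraries, against 714 and 597 TPM in control libraries. Tcf4 (Entrez gene 21413) was at 229 and 346 TPM in Qk_KO libraries, against 213 and 211 TPM in control libraries. Tcf4 is a different gene from Tcf7l2 (Entrez gene 21416), which was listed with the nuclear factors. Sp5 and Rnf43, feedback genes that were not tested for their low level, were at or below 0.70 TPM in all 4 libraries.

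No gene was called among the 5 ligand and secretion genes, the 9 secreted and surface modulators or the 18 signal relay and destruction complex genes tested. At an unadjusted p of 0.05, 28 of all 82 pathway genes passed in limma, against 3760 of all 13260 genes. Wls, the carrier that brings Wnt proteins to the cell surface, was at 89.8 and 61.6 TPM in Qk_KO libraries, against 39.9 and 49.97 TPM in control libraries, and Porcn, the enzyme that attaches their lipid, was at 27.98 and 29.3 TPM in Qk_KO libraries, against 26.4 and 21.2 TPM in control libraries. Gpc4, a surface proteoglycan, was at 223 and 141 TPM in Qk_KO libraries, against 139 and 140 TPM in control libraries, and Draxin, a secreted guidance protein, was at 62.2 and 70.7 TPM in Qk_KO libraries, against 47.9 and 35.4 TPM in control libraries. Wif1, a secreted protein that binds Wnt ligands and that was named after its values were seen, was at 9.95 and 12.8 TPM in Qk_KO libraries, against 37.3 and 21.3 TPM in control libraries (limma, adjusted p = 0.0662). Ctnnb1, the gene of beta-catenin, was at 687 and 628 TPM in Qk_KO libraries, against 653 and 591 TPM in control libraries, and Csnk1a1, a kinase of the destruction complex, was at 272 and 251 TPM in Qk_KO libraries, against 238 and 259 TPM in control libraries.

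**Figure D4:**
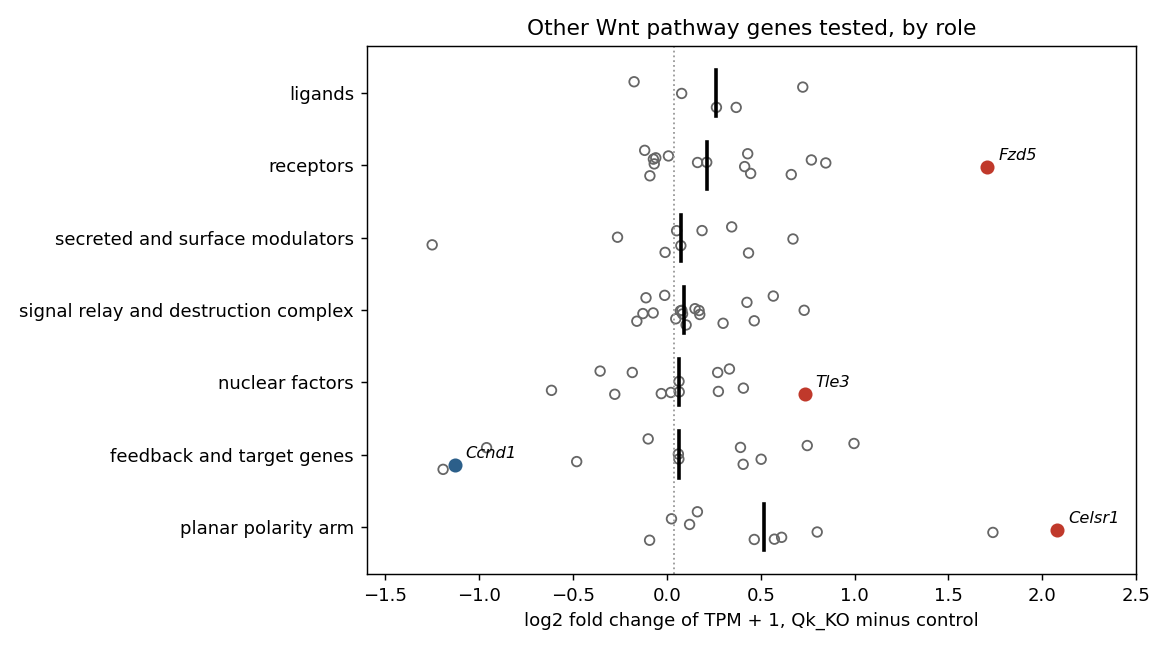
log2 fold change, Qk_KO minus control, of the 82 other Wnt pathway genes tested, by role, with each circle 1 gene, filled where called by limma, black bars the median of a role and the dotted line the median of all genes tested. Fzd5, Celsr1 and Tle3 are called higher and Ccnd1 lower, and the median of the planar polarity genes is 0.52, against 0.04 over all genes tested.

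The genes nearest to Wnt7a in pattern over the 4 libraries, by Euclidean distance of centred log2(TPM + 1) among 12212 other named genes, were Gabra4, Adamts8 and Nucb2, at distances of 0.10, 0.14 and 0.18. Those nearest to Wnt7b were E2f5, Mpeg1 and Pxdc1, at 0.12, 0.20 and 0.23. E2f5 was at 10.8 and 8.49 TPM in Qk_KO libraries, against 24.6 and 24.0 TPM in control libraries. With 4 libraries, such likeness is mostly a likeness of the group difference, and nothing further is read from it.

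In bulk RNA, fewer cells of a type and less RNA per cell cannot be told apart, and summed markers of several other cell types were at different levels in the groups. The 14 neuron markers, led by Tubb3 and Map2, summed to 752 to 825 TPM in Qk_KO and 380.0 to 589 TPM in control libraries. Of these markers, 1 was called higher (Snap25) and 0 lower. Tubb3, which was not called, held most of the difference between the sums. It had 512 and 383 TPM in Qk_KO libraries, against 275 and 126 TPM in control libraries, while Map2 overlapped. Stmn2, Nefl, Slc17a7 and Slc17a6 had lower means in Qk_KO, and the other neuron markers had higher means. The 12 oligodendrocyte precursor markers, of a cell type known to make Wnt7 ligands, were led by Olig1 and Olig2. They summed to 963 to 1179 TPM in Qk_KO and 1110.0 to 1299 TPM in control libraries. Of these markers, 0 were called higher and 2 lower (Pdgfra and Lhfpl3). Olig1 and Olig2 made up most of the sums, and their values overlapped between the groups. Pdgfra had 5.37 and 12.1 TPM in Qk_KO libraries, against 53.1 and 35.8 TPM in control libraries. Sox10, which was not called, had 2.38 and 7.55 TPM in Qk_KO libraries, against 17.2 and 40.8 TPM in control libraries. Only Olig1 and C1ql1 of the list had a higher mean in Qk_KO. The 12 microglia and macrophage markers, led by Tyrobp and C1qb, summed to 19.6 to 27.0 TPM in Qk_KO and 46.7 to 55.8 TPM in control libraries, with 0 of 7 tested called in either direction by limma. The 12 choroid plexus and ependymal markers were led by Foxj1 and Otx2. Their sums were 22.7 to 34.9 TPM in Qk_KO and 18.4 to 21.9 TPM in control libraries. Of these markers, 1 was called higher and 0 lower by limma. The called gene, Folr1, was at 5.65 and 3.93 TPM in Qk_KO and 0.33 and 0.44 TPM in control libraries. Otx2, which was not called, had 8.71 and 1 TPM in Qk_KO libraries, against 0.61 and 0.24 TPM in control libraries. Foxj1 overlapped between the groups. Foxj1, Kl, Aqp1 and Clic6 had lower means in Qk_KO. Ccdc153 and Tmem212 were listed at 0 in all, and the other markers of the list had higher means in Qk_KO. The part of these cell types in the Wnt values was not tested. Of the 12 endothelial markers, led by Kdr and Egfl7, 9 had a mean below 1 TPM, Cldn5 and Cdh5 were at or below 0.05 TPM in all 4 libraries, and sums were 10.2 to 10.5 TPM in Qk_KO and 8.58 to 8.96 TPM in control libraries. Pericyte, fibroblast and meninges markers, led by Col1a1 and Col1a2, summed to 38.1 to 38.2 TPM in Qk_KO and 45.1 to 50.7 TPM in control libraries. The 11 cortical hem markers, which include Wnt3a and Lmx1b listed at 0 in all, summed to 16.1 to 18.7 TPM in Qk_KO and 15.1 to 23.4 TPM in control libraries.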

How the data were processed

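Polyadenylated RNA was read on an Ion Proton instrument, per the labels' protocols. For each library the authors deposited 1 table of gene TPM. The submitters' processing notes name STAR 2.4.1d, RSEM 1.3.0, mm10 and GRCm38.p4. Annotation, read filters and strand setting are not stated (not given in the sources used here). A TPM value is a share of a total and keeps no depth, so no counting interval is given.

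Genes averaging 1 TPM or more (13260) entered limma 3.58.1 in R 4.3.3 (lmFit, then eBayes with its trend option) on log2(TPM + 1), two-sided. P-values were adjusted by Benjamini-Hochberg over these genes, with a threshold of 0.05. The fit was tested on simulated data. An exact permutation test of 2 against 2 libraries cannot go below p = 0.333. The labels do not tie libraries to separate cultures, so the spread between control libraries may be technical. The 2 Qk_KO libraries differed in Xist and Eif2s3y, so their spread is not technical alone.

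The 10 genes and all lists were chosen with earlier results of these data known. The rule for other named pathway genes took those called and the 2 of each role with the highest mean TPM, and the 3 genes nearest in pattern to each Wnt7 gene. Alternatives changed the pseudocount, filter, scaling, variance model and block, or left out a library. Further ones were chosen after seeing the data, dropping genes of small RNA biotypes in RefSeq, and subtracting a loess curve of log2 values on GC content per library (span 0.5, 12462 genes). Positions and transcripts came from GENCODE M21 (GRCm38), and promoter windows from RefSeq (GRCm38.p6). Figures used matplotlib 3.10.9.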

Additional observations from a re-analysis of the deposited data

How the results depend on the processing

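Over all genes tested, 430 were called by limma, 242 higher and 188 lower in Qk_KO. The count was 0 with no filter on low values (4327 genes at an unadjusted p under 0.05), 649 among genes averaging 5 TPM or more, 41 with no mean-variance trend and, in alternatives chosen after seeing the data, 804 without small RNA genes and 762 with the GC trend removed, of which 327 were higher and 435 lower. It ran from 4 to 148 with 1 library left out, where the lone library of a group is assumed to vary like the other group. For the other Wnt pathway genes the count of 4 became 0 with no filter (26 at an unadjusted p under 0.05), 2 with no trend and 7 without small RNA genes, and ran from 0 to 3 with 1 library left out. The cause of these changes was not tested.

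The replicate numbers are shared by the groups but nothing in the labels pairs them, and the correlation of same-numbered deviations was 0.11 over 13260 genes. With the replicate number as a block, 1278 genes and 14 of the other pathway genes were called.

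Of the 9 genes tested of the 10 described, only Fzd1 changed sign, at -0.10 with the GC trend removed. Of the other pathway genes named by the rule, Ptk7 changed sign at -0.023 with median-ratio scaling, -0.011 with quantile normalization and -0.14 with the GC trend removed, where Ctnnb1 was at -0.0015, Cby1 at -0.081 and Vangl2 at -0.037. With 1 library left out, log2 fold changes ran from -0.19 to 0.0523 for Ryk, from -0.048 to 0.065 for Ptk7, from -0.056 to 0.19 for Cby1 and from -0.065 to 0.19 for Id2. Wnt7a and Wnt7b were each called under 10 of 15 alternatives, Dkk3 and Nkd1 under 9, and Axin2, Wnt5a, Reck and Fzd1 under 0 of 15. Notum was tested under 13 alternatives and called under 0 of them. Its mean fell below the filter without control replicate 1 and with the minimum of 5 TPM. The genes were chosen with this comparison known and most settings refit the same 4 libraries, so nothing is read from these tallies. The read depth behind each TPM is unknown, so no counting error can be given for the low values of Notum and Lef1.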
